A study of Mus musculus with 16 samples.

Results

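The genes described here encode the enzymes that make, break down and read the cyclic nucleotides cyclic AMP and cyclic GMP. They were chosen by symbol: the adenylyl cyclases (Adcy), the guanylyl cyclases (Gucy1 and Gucy2), the phosphodiesterases (Pde with a number and a letter a to d), the regulatory (Prkar) and catalytic (Prkac) subunits of protein kinase A, and the cyclic AMP or Rap exchange factors Rapgef2 to Rapgef4. The rule matched 50 of 53379 gene IDs: 10 adenylyl cyclases, 9 guanylyl cyclase genes, 22 phosphodiesterases, 4 regulatory and 2 catalytic kinase subunits and 3 exchange factors.

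RNA came from the dorsal root ganglia of naive female and male littermates aged 8 to 12 weeks, all Nav1.8Cre/Rosa26fstrap on the C57BL/6J background, so that Cre under the Scn10a promoter switched on an EGFP-L10a fusion in neurons that make the sodium channel Nav1.8. From each of 4 pools per sex, each of ganglia from 3 mice, total RNA of the whole ganglia was sequenced (IN) and so was the RNA pulled down with the tagged ribosomes (IP), which gave 16 libraries in 4 groups of 4. All groups carried both transgenes and none was treated. The IP fraction covers every cell with a history of Cre under that promoter, and the IN fraction covers all cells of the ganglion. A difference between them therefore joins cell type and ribosome binding, which cannot be told apart. In bulk RNA of this kind, fewer cells of a type and less RNA per cell cannot be told apart either.

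Adenylyl cyclases make cyclic AMP when a receptor activates the G protein Gs, and guanylyl cyclases make cyclic GMP in response to nitric oxide or natriuretic peptides. Phosphodiesterases hydrolyse either messenger or both. Cyclic AMP binds the regulatory subunits of protein kinase A and frees the catalytic subunits, and it also opens the Epac proteins (Rapgef3 and Rapgef4), which load the small GTPase Rap. In nociceptors, the sensory neurons that report damage, prostaglandins and other inflammatory signals raise cyclic AMP, and protein kinase A phosphorylates ion channels, Nav1.8 among them.

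Levels are given as scaled TPM, which are length-corrected transcript abundances divided by a factor per library, so that levels of different genes can be compared. Changes are given as log2 differences of scaled TPM plus 1, IP against IN within a pool, and a gene was called where limma's Benjamini-Hochberg adjusted p over all tested genes was under 0.05. The adjusted p-values below come from that test. Depth is unknown because TPM keep no counts. Of the deposited TPM, nuclear protein-coding genes made up 9.58% to 13.3% in IN and 44.9% to 79.5% in IP. All directions below are therefore relative to the typical gene: with deposited TPM left unscaled the median change of all tested genes was 1.84 on the log2 scale, against 0.02 with scaling, and 94.0% of all calls were higher in IP, against 51.0%. With quantile normalization the median was 0.15 and the share was 61.1%. Scn10a itself, the gene whose promoter drives Cre, rose from 125 ± 12.4 to 381 ± 46.8 scaled TPM (mean ± SD, n = 8), a log2 change of 1.60 ± 0.08 (SE; adjusted p = 7.04e-08), and all 6 nociceptor markers listed rose.

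Listed markers of other cell types fell in the fit over all pools. All tested markers on the lists for large-diameter neurons (5 of 5), satellite glia (6), Schwann cells (5), macrophages (4 of 5 listed were tested), fibroblasts (4), endothelial cells (4), mural cells (6) and skeletal muscle (4) were lower in IP, and none of these markers was at 0 in a whole group. The summed satellite glia markers ran from 926 to 1236 scaled TPM in IN and from 124 to 279 in IP, and the summed Schwann cell markers from 2269 to 3414 and from 383 to 979. In the IP libraries the sums for satellite glia, Schwann cells, macrophages, fibroblasts, endothelial and mural cells and skeletal muscle were each highest in female pool 2. In that pool the skeletal muscle sum hardly fell, from 156 in IN to 135 in IP, whereas it was 2.42 to 30.3 in the other IP libraries. Every gene below that fell in IP moved with these lists, and the part of other cell types in each such change was not tested.

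Of the 50 genes, 36 had a mean deposited TPM of at least 1 in IN or IP and were tested. Of the 36, 12 rose and 15 fell in IP, which is 27 called, and 9 did not pass. Across all tested genes 79.4% were called, 40.5% as higher and 38.9% as lower, so the share of enzyme genes called was near the background. Their median log2 change was 0.00, against 0.02 for all tested genes. Changes of 2-fold or more were called for 10 of the 36, 5 in each direction, against 16.2% of all tested genes. The IN and IP libraries did not overlap for 20 of the 36, against 48.4% of all tested genes, and 27 had the same sign in all 8 pools, against 66.2%. By family, 3 of 4 regulatory subunits of protein kinase A rose and none fell, and 2 of 3 exchange factors fell and none rose. Of 18 phosphodiesterases 8 fell and 5 rose, among the latter Pde6d, which encodes no catalytic domain. Of 8 adenylyl cyclases 4 fell and 3 rose. Differences between families were not tested.

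**Figure D1:**
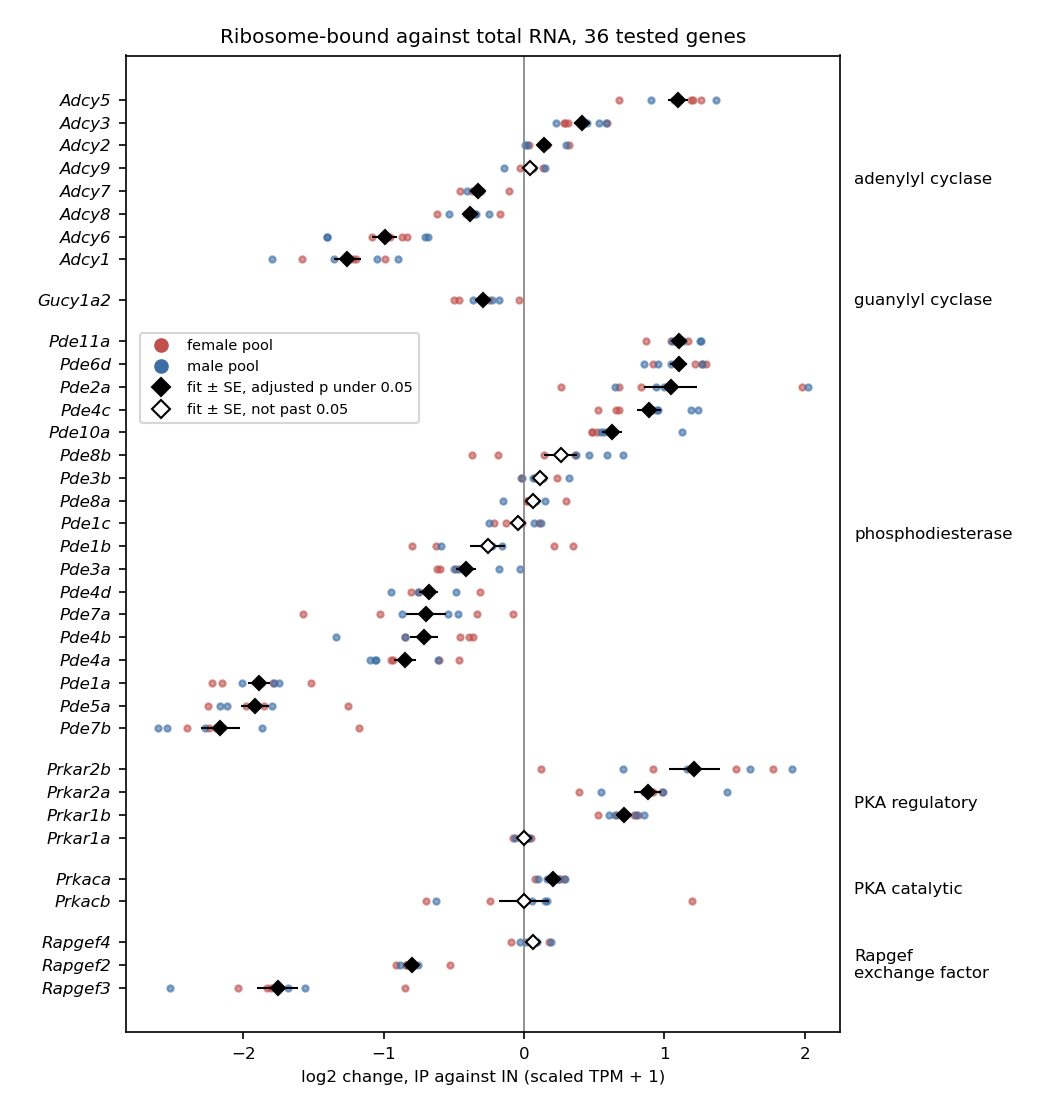
Log2 change of IP against IN (horizontal axis, scaled TPM plus 1) for the 36 tested genes, grouped by family. Small points are the 8 pools, red for female and blue for male; diamonds with bars are the fit ± SE, filled where the adjusted p was under 0.05. Pde7b, Pde5a, Pde1a and Rapgef3 lie furthest to the left, and Prkar2b, Pde11a, Pde6d and Adcy5 furthest to the right; the pools of Prkar1a lie between -0.08 and 0.05.

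The 14 genes not tested were low in every group. For 10 of them no mean in IN or IP was above 0.2 scaled TPM, among them the membrane guanylyl cyclases Gucy2c to Gucy2g, the photoreceptor phosphodiesterases Pde6a, Pde6b and Pde6c, and the soluble adenylyl cyclase Adcy10. Gucy1b2 and Pde6c were listed at 0 in all 16 libraries. The other 4 reached higher levels in IN: Gucy1a3 (2.07 ± 0.142 in IN and 0.424 ± 0.142 in IP, mean ± SD), Gucy1b3 (1.81 ± 0.344 and 0.257 ± 0.192), Pde9a (0.840 ± 0.123 and 0.0832 ± 0.103) and Adcy4 (0.786 ± 0.267 and 0.101 ± 0.185). When no filter was applied, 9 of the 14 were called lower and 0 higher. Of all genes in that fit, which lacked Gucy1b2 and Pde6c, 35.8% and 23.6% were. The filter was set on deposited TPM, which scaling divided by 1.65 to 2.69 in IP and by 0.375 to 0.532 in IN. Genes under it are therefore held to lower scaled levels in IP than in IN. The direction of these calls thus follows in part from how the 14 were picked. Some of the changes called were minute, such as -0.014 for Adcy10.

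The adenylyl cyclase genes exchanged places while, with the scaling used, their sum hardly moved. A sum set between fractions depends on that scaling, unlike the shares within a library given below. Summed over the 10 genes, scaled TPM were 63.2 ± 2.99 in IN and 62.1 ± 3.14 in IP (mean ± SD, n = 8). Adcy5, a cyclase inhibited by calcium and by Gi, had a lowest, median and highest level of 9.27, 10.5 and 11.6 scaled TPM in IN and of 19.1, 23.8 and 27.2 in IP. Every IP library was above every IN library, and the lowest IP value was that of female pool 2. The log2 change was 1.10 ± 0.07 (SE; adjusted p = 2.63e-07), higher in 8 of 8 pools.

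Adcy1, a neuronal cyclase stimulated by calcium and calmodulin, moved the other way. Its lowest, median and highest level was 15.4, 16.7 and 18.4 scaled TPM in IN and 4.33, 6.45 and 9.18 in IP. The groups did not overlap, and the log2 change was -1.26 ± 0.10 (SE; adjusted p = 7.63e-07), lower in 8 of 8 pools. In IN it was the most abundant adenylyl cyclase transcript, at 26.6% ± 1.81 of the family's summed TPM against 16.8% ± 0.644 for Adcy5. In IP the order was turned, with 10.5% ± 2.33 for Adcy1 and 38.4% ± 3.39 for Adcy5. The ratio of Adcy5 to Adcy1 was between 0.515 and 0.691 in the IN libraries and between 2.42 and 5.53 in the IP libraries.

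The remaining cyclases changed less, apart from Adcy6. Adcy6 shares with Adcy5 the inhibition by calcium, yet it fell from 8.20 ± 0.711 to 3.68 ± 0.822 scaled TPM (log2 change -0.99 ± 0.09, SE; adjusted p = 2.95e-06), with no overlap between the fractions. Adcy7 (log2 change -0.33) and Adcy8 (-0.38), the latter also stimulated by calcium and calmodulin, fell in 8 of 8 pools by small amounts, and with quantile normalization both changes were slightly above 0 (0.080 and 0.088) and did not pass. Adcy3, best known as the cyclase of olfactory neurons, rose from 4.89 ± 0.526 to 6.81 ± 0.532 scaled TPM (log2 change 0.41 ± 0.06, SE). Of its exon bases 22.1% lie opposite those of Cenpo on the other strand, and whether the counting used strand is not stated in the sources used here. Cenpo was at 2.17 to 3.16 scaled TPM in IN and 1.49 to 2.45 in IP. Adcy2 rose by 0.14 on the log2 scale (adjusted p = 0.0247), a call that was lost without female pool 1 (adjusted p = 0.067) or without male pool 1 (0.0711). Adcy9 was at 10.2 ± 0.728 and 10.5 ± 0.432 scaled TPM, a log2 change of 0.04 that did not pass. It was called higher with quantile normalization (0.14), without the filter (0.20) and with centred deposited values (0.33). By the calcium response of the enzymes, the genes for cyclases inhibited by calcium (Adcy5 and Adcy6) held 29.7% ± 1.24 of the family's TPM in IN and 44.3% ± 3.23 in IP, higher in 8 of 8 pools. Those stimulated by calcium and calmodulin (Adcy1, Adcy3 and Adcy8) held 38.2% ± 1.31 and 24.2% ± 2.03, lower in 8 of 8 pools. These shares were not tested.

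Of the guanylyl cyclase genes chosen by the symbols Gucy1 and Gucy2, only Gucy1a2 was among the genes tested over all pools. It encodes an alpha subunit of soluble guanylyl cyclase, the receptor of nitric oxide, which works as a dimer with a beta subunit. Its level was 9.83 ± 1.3 scaled TPM in IN and 7.88 ± 1.33 in IP, with overlapping libraries (7.19 to 11.5 and 5.66 to 9.95), and the log2 change was -0.29 ± 0.06 (SE; adjusted p = 0.000696), lower in 8 of 8 pools. The call was lost when the deposited values were centred on the median gene (log2 change -0.03, adjusted p = 0.647). The other subunits were lower still in IP: Gucy1a3, the other alpha subunit, was between 0.290 and 0.742 scaled TPM, and Gucy1b3, the beta subunit, between 0.0452 and 0.605. Gucy1a3 reached the limit for testing in the female pools alone, where it fell (log2 change -1.04 ± 0.10, SE; adjusted p = 0.000502). Gucy1a2 therefore made up 70.4% ± 2.39 of the summed TPM of the Gucy genes in IN and 91.6% ± 3.25 in IP. That sum leaves out the natriuretic peptide receptor genes, such as Npr2, which is given below and was more abundant than Gucy1a2.

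Summed phosphodiesterase TPM were 143 ± 5.72 in IN and 178 ± 5.69 in IP. That difference depends on the scaling and is a net of moves in both directions. Among the genes that rose were Pde6d (21.2 ± 2.02 and 46.7 ± 5.04), Pde11a (14.1 ± 0.713 and 31.5 ± 1.94) and Pde2a (15.2 ± 5.05 and 30.9 ± 4.01). Among those that fell were Pde4d (16.6 ± 1.31 and 10.0 ± 1.27) and Pde7b (7.91 ± 0.744 and 1.09 ± 0.830). Pde6d is counted in that sum by its name, but it encodes a carrier of prenylated proteins and no catalytic domain, so it is left out of the shares given here. It was at 17.0 to 23.5 scaled TPM in IN and 39.3 to 53.5 in IP (log2 change 1.10 ± 0.06, SE; adjusted p = 9.86e-08). Among the catalytic genes, those for enzymes that hydrolyse both nucleotides (Pde1, Pde2, Pde3, Pde10 and Pde11) held 53.5% ± 2.06 of the TPM in IN and 72.9% ± 2.29 in IP. The cyclic AMP-specific genes (Pde4, Pde7 and Pde8) held 42.1% ± 2.01 and 26.6% ± 1.99, and the cyclic GMP-specific genes (Pde5, Pde6 and Pde9) 4.34% ± 0.339 and 0.421% ± 0.344. Each of these shares moved the same way in 8 of 8 pools, and none was tested.

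**Figure D2:**
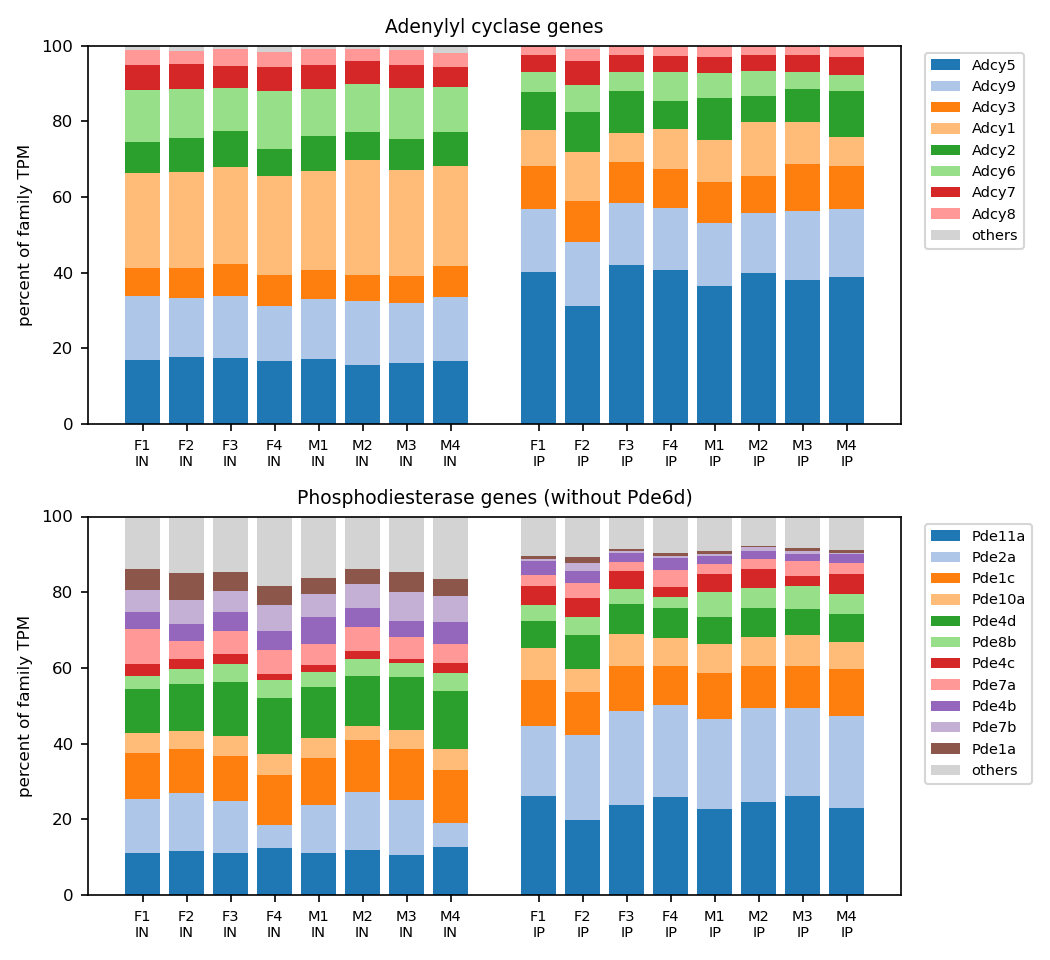
Percent of the family's scaled TPM taken by each adenylyl cyclase gene (top) and each phosphodiesterase gene without Pde6d (bottom), 1 bar per library, IN on the left and IP on the right; F and M with a number name the female and male pools. Genes under 2% (top) or 4% (bottom) in both fractions are joined as others. Adcy5 widens and Adcy1 narrows from IN to IP in every pool, as do Pde11a and Pde2a against Pde4d, Pde7b and Pde1a.

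Pde11a, which hydrolyses both nucleotides, rose in every pool. Its lowest, median and highest level was 12.9, 14.2 and 14.9 scaled TPM in IN and 27.9, 31.5 and 33.9 in IP, so that the fractions lay far apart and varied little within themselves. The log2 change was 1.11 ± 0.05 (SE; adjusted p = 4.40e-08), and the share of the family went from 11.5% ± 0.743 to 24.0% ± 2.2. Pde10a, another enzyme of both nucleotides that is best known from striatal neurons, rose from 6.18 ± 0.837 to 10.0 ± 0.892 scaled TPM (log2 change 0.63 ± 0.07, SE). Pde4c, of the cyclic AMP-specific Pde4 group that rolipram inhibits, rose by 0.89 ± 0.08 on the log2 scale. Its lowest, median and highest level was 1.32, 2.78 and 3.85 scaled TPM in IN and 3.42, 6.41 and 7.28 in IP. Female pool 4 and male pool 3 were the lowest of their sex in both fractions, with 1.77 and 1.32 in IN and 3.42 and 3.50 in IP, and their rise was of the same order as in the other pools.

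Pde2a, which is activated by cyclic GMP to hydrolyse cyclic AMP, also rose, but its entry is uncertain. It shares 64.3% of its exon bases with the entry Gm45837 on the same strand, so reads can be assigned to either. Pde2a was at 15.5 to 19.5 scaled TPM in 6 IN libraries and at 7.27 and 7.21 in those of female pool 4 and male pool 4. In these same libraries Gm45837 was at 10.5 and 10.7, whereas it was at most 1.73 in the other IN libraries. Among the IP libraries Pde2a was lowest in female pool 1, at 21.8, and Gm45837 was highest there, at 10.7. Summed, the entries were at 17.3 to 19.5 scaled TPM in IN (18.2 ± 0.710, mean ± SD) and at 31.0 to 36.8 in IP (33.4 ± 1.86), with far less spread than Pde2a alone (15.2 ± 5.05 and 30.9 ± 4.01). The log2 change was 1.04 ± 0.19 (SE; adjusted p = 0.000485) for Pde2a alone and 0.84 (adjusted p = 6.05e-08) for the sum, which was computed after these values had been seen.

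**Figure D3:**
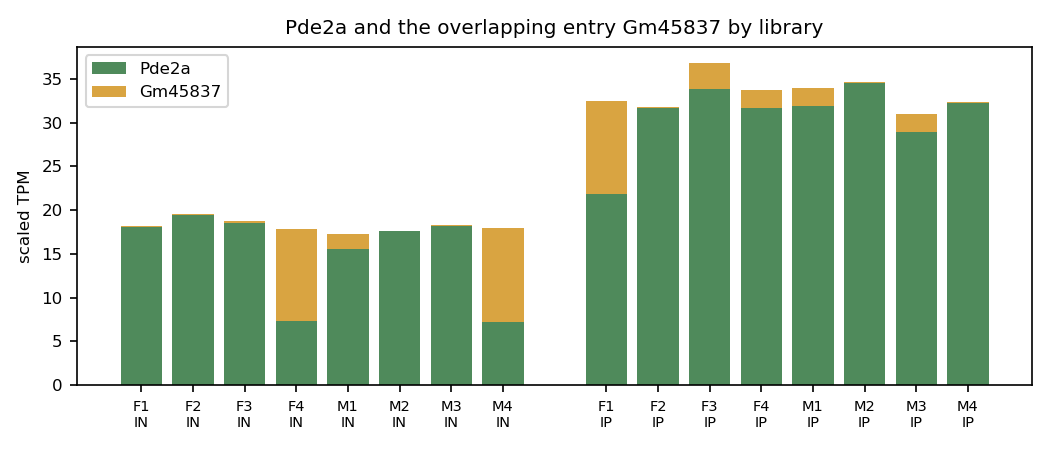
Scaled TPM of Pde2a (green) and of the overlapping entry Gm45837 (yellow), stacked, in each library; IN on the left, IP on the right. The height of the stack is between 17.3 and 19.5 in IN and between 31.0 and 36.8 in IP, while the green part is short where the yellow part is tall.

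Among the tested phosphodiesterases Pde7b, Pde5a and Pde1a had the most negative log2 changes of scaled TPM plus 1, a scale that understates changes of low genes. Pde7b, specific for cyclic AMP, had a lowest, median and highest level of 7.30, 7.56 and 9.56 scaled TPM in IN and of 0.459, 0.801 and 3.04 in IP (log2 change -2.16 ± 0.14, SE; adjusted p = 2.63e-07). Pde5a, the cyclic GMP-specific enzyme that sildenafil inhibits, was at 3.47, 4.47 and 5.07 in IN and at 0.130, 0.362 and 1.40 in IP (log2 change -1.92 ± 0.10, SE; adjusted p = 6.90e-08). Pde1a, activated by calcium and calmodulin, was at 4.46, 6.15 and 8.98 in IN and at 0.357, 0.771 and 2.49 in IP (log2 change -1.89 ± 0.08, SE; adjusted p = 4.40e-08). Pde5a met the limit for testing through IN alone, with a mean deposited TPM of 2.01 in IN and 0.943 in IP. Its fall is thus not independent of that filter. The fractions did not overlap for Pde7b, Pde5a or Pde1a. In each of them the highest IP library was that of female pool 2, the library with the highest sums of most non-neuronal markers. Of the 15 genes of the module that fell, 10 had their highest IP value in that library and 11 had their smallest change in that pool. The same counts were not made over all genes that fell, so they are not read as particular to the module. Without female pools 2 and 4, the pools whose IP libraries had the lowest protein-coding shares, 13 of 36 genes were called higher and 15 lower, against 39.5% and 38.2% of all tested genes.

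The Pde4 group was split. Pde4d, the most abundant cyclic AMP-specific gene in both fractions, fell from 16.6 ± 1.31 to 10.0 ± 1.27 scaled TPM (log2 change -0.68 ± 0.07, SE), Pde4b from 6.23 ± 1.07 to 3.42 ± 0.651 (-0.71 ± 0.10) and Pde4a from 2.26 ± 0.407 to 0.810 ± 0.234 (-0.85 ± 0.08), each lower in 8 of 8 pools without overlap. Pde4c rose, as given above. Pde7a fell with a wide spread (log2 change -0.70 ± 0.14, SE), from -1.58 in female pool 1 to -0.08 in female pool 2. Pde3a, inhibited by cyclic GMP, was low, at 1.13 ± 0.129 and 0.605 ± 0.193 scaled TPM (log2 change -0.41), and did not pass with quantile normalization (adjusted p = 0.147). Its relative Pde3b was at 4.39 ± 0.510 and 4.84 ± 0.534 and did not pass (log2 change 0.12, adjusted p = 0.0519).

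Neither Pde1c nor Pde1b, the other genes of the Pde1 group, passed. Pde1c was at 15.6 ± 0.551 scaled TPM in IN and 15.1 ± 1.31 in IP (log2 change -0.04, adjusted p = 0.456). Its direction turned and it was called higher without the filter (0.12) and with centred deposited values (0.32). Pde1b was at 2.72 ± 0.825 and 2.10 ± 0.590 scaled TPM (log2 change -0.26, adjusted p = 0.0797). It passed as lower without female pool 1 (adjusted p = 0.0207) or female pool 2 (0.0347), with array weights (0.0476) and with centred deposited values (0.00477). In the male pools alone it passed as lower (log2 change -0.31, adjusted p = 0.0244), but not in the female pools (-0.21, adjusted p = 0.428). With quantile normalization the direction of Pde1b turned. Pde8a (2.99 ± 0.231 and 3.19 ± 0.416) and Pde8b (5.18 ± 0.600 and 6.52 ± 1.53), which encode high-affinity cyclic AMP enzymes, did not pass, with log2 changes of 0.07 and 0.26. Without the filter on low TPM, which changes the scaling factors, all of Pde3b, Pde8a and Pde8b passed as higher (log2 changes 0.26, 0.20 and 0.41), as they did with quantile normalization (0.45, 0.49 and 0.54). Pde3b also passed as higher without female pool 3 (adjusted p = 0.0455) or male pool 3 (0.0407), and Pde8b without female pool 3 (0.0294), female pool 4 (0.0104) or female pools 2 and 4 together (0.0213).

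The regulatory subunits of protein kinase A keep the kinase inactive until cyclic AMP binds. Type I subunits (Prkar1a and Prkar1b) hold the catalytic site with a pseudosubstrate, and type II subunits (Prkar2a and Prkar2b) with a site that the kinase can phosphorylate. The coding sequences around that site show what separates the types, and are printed because the 4 genes differed in the pulldown. Each is the coding strand 5' to 3' from GENCODE M21 (GRCm38), 51 bases long, with the codons of the 5 residues of the inhibitor site in capitals.
Prkar1a: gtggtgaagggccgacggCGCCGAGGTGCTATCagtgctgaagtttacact
Prkar1b: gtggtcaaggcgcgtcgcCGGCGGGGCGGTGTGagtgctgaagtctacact
Prkar2a: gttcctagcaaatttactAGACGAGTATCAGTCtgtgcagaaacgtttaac
Prkar2b: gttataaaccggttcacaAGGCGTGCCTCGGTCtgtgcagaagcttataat
The site begins with a pair of arginine codons in all 4 genes. Its codon before the last is GCT for alanine in Prkar1a and GGT for glycine in Prkar1b, neither of which can take a phosphate, and TCA or TCG for serine in Prkar2a and Prkar2b. The stretch lies in exon 3 of Prkar1a (chr11:109660089-109660139, plus strand, residues 96 to 100 of 381) and in exon 3 of Prkar1b (chr5:139108514-139108564, minus strand, residues 96 to 100 of 381). It spans exons 2 and 3 of Prkar2a (chr9, plus strand, residues 94 to 98 of 402) and of Prkar2b (chr12, minus strand, residues 109 to 113 of 416).

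Prkar1a was the most abundant transcript of the module and did not pass. Its lowest, median and highest level was 223, 266 and 318 scaled TPM in IN and 231, 254 and 326 in IP, and within a pool the log2 changes ran from -0.08 to 0.05. The log2 change was 0.00 ± 0.04 (SE; adjusted p = 0.991). It was called lower with quantile normalization (log2 change -0.22) and higher without the filter (0.17) or with centred deposited values (0.50). Prkar1b, the neuronal type I subunit, rose. It was at 131, 146 and 155 scaled TPM in IN and at 190, 235 and 267 in IP, with no overlap (log2 change 0.71 ± 0.05, SE; adjusted p = 4.08e-07). The ratio of Prkar1b to Prkar1a was 0.548 ± 0.0387 in IN and 0.900 ± 0.0783 in IP, higher in 8 of 8 pools.

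Both type II subunits rose. Prkar2a was at 39.9, 54.7 and 65.3 scaled TPM in IN and at 86.1, 102 and 116 in IP, without overlap (log2 change 0.88 ± 0.10, SE; adjusted p = 1.27e-05). Prkar2b, the type II subunit most abundant in brain and fat, had the largest positive log2 change of the tested module genes, 1.21 ± 0.18 (SE; adjusted p = 0.000127). Its lowest, median and highest level was 29.9, 33.2 and 78.2 in IN and 61.0, 85.9 and 126 in IP. The fractions overlapped because of the IN library of female pool 3, at 78.2, in which the pool's change was 0.12 on the log2 scale; in the other 7 pools the changes ran from 0.70 to 1.91. The ratio of type II to type I regulatory TPM was 0.238 ± 0.0558 in IN and 0.388 ± 0.0411 in IP, higher in 8 of 8 pools. As shares of the regulatory subunits, Prkar1a went from 52.3% ± 3.15 to 38.0% ± 1.90, Prkar1b from 28.6% ± 1.26 to 34.1% ± 1.82, Prkar2a from 11.0% ± 1.79 to 14.8% ± 1.09 and Prkar2b from 8.07% ± 3.39 to 13.1% ± 1.89.

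**Figure D4:**
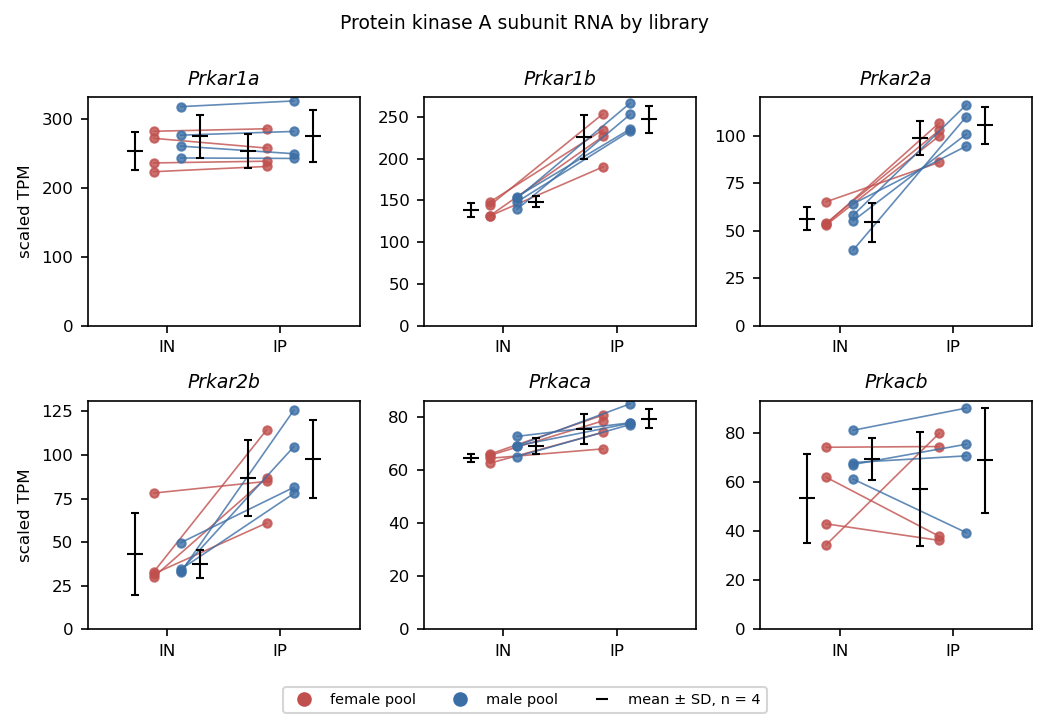
Scaled TPM of the 6 protein kinase A subunit genes in each library, IN and IP of a pool joined by a line, female pools in red and male pools in blue; black bars are the mean ± SD of each group of 4. Lines rise for Prkar1b, Prkar2a and Prkar2b, run nearly flat for Prkar1a, rise slightly for Prkaca and cross for Prkacb, which ranges from 34.4 to 90.2.

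Prkaca, the ubiquitous catalytic subunit, was at 62.6, 65.8 and 72.7 scaled TPM in IN and at 68.0, 77.8 and 85.0 in IP, higher in 8 of 8 pools (log2 change 0.21 ± 0.04, SE; adjusted p = 0.000662), but with quantile normalization it was called lower (log2 change -0.13, adjusted p = 0.00335). Prkacb, the catalytic subunit that is prominent in brain, did not pass (log2 change 0.00 ± 0.18, SE; 0.47 and called higher with centred deposited values) and varied more between libraries than any other kinase subunit gene relative to its mean in IP. In IP it was at 79.9, 37.9, 36.3 and 74.5 scaled TPM in female pools 1 to 4 and at 70.7, 90.2, 75.5 and 39.4 in male pools 1 to 4. In IN it was at 34.4, 62.0, 43.0 and 74.2 in the female and at 68.0, 81.2, 67.2 and 61.2 in the male pools. Low and high libraries thus occurred in both fractions and were not shared within pools 1 and 2 of the females or pool 4 of the males. The ratio of regulatory to catalytic TPM was 3.98 ± 0.567 in IN and 5.03 ± 0.621 in IP, higher in 7 of 8 pools.

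Prkar1a was the only gene of the module with the full cyclic AMP response element TGACGTCA in its promoter window, among the 41 of 50 genes with RefSeq windows (GRCm38.p6; 250 bases before to 50 after a transcript start). Gucy1a3 and Gucy1b3 were matched there through their synonyms Gucy1a1 and Gucy1b1. The element is printed because it is the site at which the transcription factor CREB, a target of protein kinase A, is known to bind. The window is chr11:109650889-109650918 on the plus strand, with the element in capitals.
Prkar1a promoter: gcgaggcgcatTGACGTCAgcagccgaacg
The element ends 42 bases before the transcript start at 109650949 and lies 39 to 46 bases into the transcript that starts at 109650862. Of all 27025 genes with windows 2.03% held the element, which reads the same on both strands. The shorter core TGACG, which is contained in the full element and was searched on both strands, was in a window of 17 of the 41 genes (41.5%), against 23.0% of all genes. These genes have more windows each than the average gene, and by window the shares lie close together, at 19 of 81 (23.5%) against 20.8% of all 32851 windows. A match describes the letters and was not tested against the values.

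The exchange factors were dominated by Rapgef4 (Epac2), the Epac of neurons and endocrine cells, which was at 37.4 ± 2.74 scaled TPM in IN and 39.2 ± 3.15 in IP (log2 change 0.06 ± 0.04, SE; adjusted p = 0.180). It was called lower with quantile normalization (-0.18) and higher without the filter (0.23) or with centred deposited values (0.51). Rapgef3 (Epac1), the more widely expressed Epac, fell. Its lowest, median and highest level was 5.50, 7.04 and 8.54 scaled TPM in IN and 0.131, 1.33 and 4.00 in IP, without overlap (log2 change -1.75 ± 0.14, SE; adjusted p = 1.30e-06). Its highest IP value was again that of female pool 2, and the next was 1.85. Rapgef2, a Rap exchange factor also known as PDZ-GEF1, fell from 9.59 ± 0.394 to 5.11 ± 0.515 scaled TPM (log2 change -0.80 ± 0.05, SE; adjusted p = 1.82e-07). Rapgef4 took 69.3% ± 2.57 of the TPM of the 3 genes in IN and 85.5% ± 2.89 in IP, and Rapgef3 12.9% ± 2.10 and 3.26% ± 2.14.

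The counts of genes around the module stand against the 40.5% of all tested genes called higher and the 38.9% called lower, and differences between these lists were not tested. Of 7 G protein alpha subunit genes 5 rose and 1 fell. Gnas, which encodes Gs, rose from 278 ± 30.5 to 500 ± 38.4 scaled TPM (log2 change 0.85) and Gnal, which encodes the related Golf, from 74.2 ± 3.71 to 133 ± 18.8 (0.83). Of the inhibitory subunits, Gnai2 rose (log2 change 0.88) and Gnai1 fell (-1.04). Of 12 tested genes for receptors that couple to Gs, 4 rose and 5 fell. Ptgir, the prostacyclin receptor, rose from 10.5 ± 1.01 to 25.2 ± 2.72 scaled TPM (log2 change 1.18), and Ptgdr, a prostaglandin D2 receptor, from 13.3 ± 1.07 to 27.3 ± 2.14 (0.99). Calcrl, the receptor for calcitonin gene-related peptide, fell (log2 change -1.36). With quantile normalization 8 receptor genes were called higher and 4 lower, against 49.3% and 31.3% of all tested genes.

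Downstream of cyclic AMP, all 3 genes for the heat-stable inhibitors of protein kinase A rose: Pkig by 0.77 on the log2 scale, Pkib by 0.60 and Pkia by 0.17, the last not passing with quantile normalization (-0.06). Of 10 tested A-kinase anchoring protein genes 1 rose (Akap12, log2 change 0.22, called lower with quantile normalization at -0.15) and 6 fell, among them Akap7 (-1.22) and Akap9 (-0.79). With centred deposited values the split of the anchors was 4 higher and 4 lower, against 45.5% and 41.2% of all tested genes. Of 9 genes for CREB factors and their coactivators 1 rose (Creb3, 0.48) and 6 fell, among them Atf1 (-1.25), Crtc3 (-1.03) and Creb1 (-0.93). On the cyclic GMP side 4 of 8 genes were tested: the natriuretic peptide receptor gene Npr2 rose from 30.1 ± 2.21 to 47.9 ± 4.15 scaled TPM (log2 change 0.65), the cyclic GMP-dependent kinase gene Prkg1 rose by 0.16 and Prkg2 fell by 0.46 on the log2 scale. Neither kinase call passed with quantile normalization (log2 changes -0.02 and -0.01). Of 10 further tested genes for cyclic nucleotide targets and transporters 4 rose, among them Popdc3 (0.89), and 4 fell, among them Rap1a (-0.75), the GTPase that the Epac proteins load.

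The contrast between fractions was then read in each sex. In the female pools 11 of 37 tested genes rose and 16 fell; of all tested genes 66.3% were called, 32.8% higher and 33.5% lower. In the male pools 12 of 36 rose and 16 fell; of all tested genes 70.2% were called, 35.2% higher and 35.0% lower. Adcy5 rose by 1.09 ± 0.11 (SE) on the log2 scale in females and by 1.10 ± 0.09 in males, and Adcy1 changed by -1.24 ± 0.11 and -1.28 ± 0.15. Prkar2b rose by 1.09 ± 0.27 and 1.34 ± 0.19. None of the 36 genes passed in the test of the difference between the sexes (limma interaction, smallest adjusted p = 1.0), in which 3 had an unadjusted p under 0.05. Of all tested genes 0.0186% passed that test and 2.78% had an unadjusted p under 0.05.

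Females and males were next compared within a fraction. In IN 0 of 35 tested genes passed (smallest adjusted p = 0.959) and 2 had an unadjusted p under 0.05, against 0.0824% and 4.89% of all tested genes. In IP 0 of 35 passed (smallest adjusted p = 1.0) and 2 had an unadjusted p under 0.05, against 0.038% and 2.38%. Log2 differences, female minus male, ran from -0.41 (Prkacb) to 0.34 (Pde1a) in IN and from -0.52 (Pde8b) to 0.55 (Rapgef3, SE 0.50) in IP.

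Pde8b had the smallest unadjusted p of the module in IP, where it ranked 36 by p among all 15776 tested genes. It was at 4.99, 6.66, 5.51 and 4.08 scaled TPM in the IP libraries of female pools 1 to 4 and at 8.68, 7.47, 7.58 and 7.16 in those of the males. Every male value was above every female one, while the IN values overlapped (4.43 to 6.39 and 4.70 to 5.30). The share of all tested genes that separate by sex in this way was not counted, so the separation is not read as particular to Pde8b. The log2 difference was -0.52 ± 0.14 (SE; unadjusted p = 0.00505, adjusted p = 1.0, limma). Between the fractions Pde8b passed in males (log2 change 0.53, adjusted p = 0.00146) and not in females (-0.01, adjusted p = 0.962), and the interaction was -0.54 (unadjusted p = 0.00914, adjusted p = 1.0).

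Pde4b and Pde4c, members of the same cyclic AMP-specific group, had opposite signs in the interaction. Pde4b was at 4.40, 4.14, 3.24 and 3.87 scaled TPM in the IP libraries of the female pools and at 2.74, 3.07, 2.60 and 3.29 in those of the males. These ranges overlapped only through female pool 3 and male pool 4, and the log2 difference was 0.37 ± 0.12 (SE; unadjusted p = 0.0104, adjusted p = 1.0). The fall of Pde4b from IN to IP was -0.51 in females and -0.91 in males (interaction 0.39, unadjusted p = 0.0495). The rise of Pde4c was 0.70 in females and 1.08 in males (interaction -0.39, unadjusted p = 0.00979). In IN the genes with an unadjusted p under 0.05 were Pde1a, at 7.18 ± 1.31 scaled TPM in females and 5.22 ± 0.853 in males (mean ± SD, n = 4; log2 difference 0.34, limma unadjusted p = 0.0153), and Pde6d, at 19.7 ± 1.85 and 22.6 ± 0.750 (-0.18, limma unadjusted p = 0.0286). None of these differences passed after adjustment over all tested genes.

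**Figure D5:**
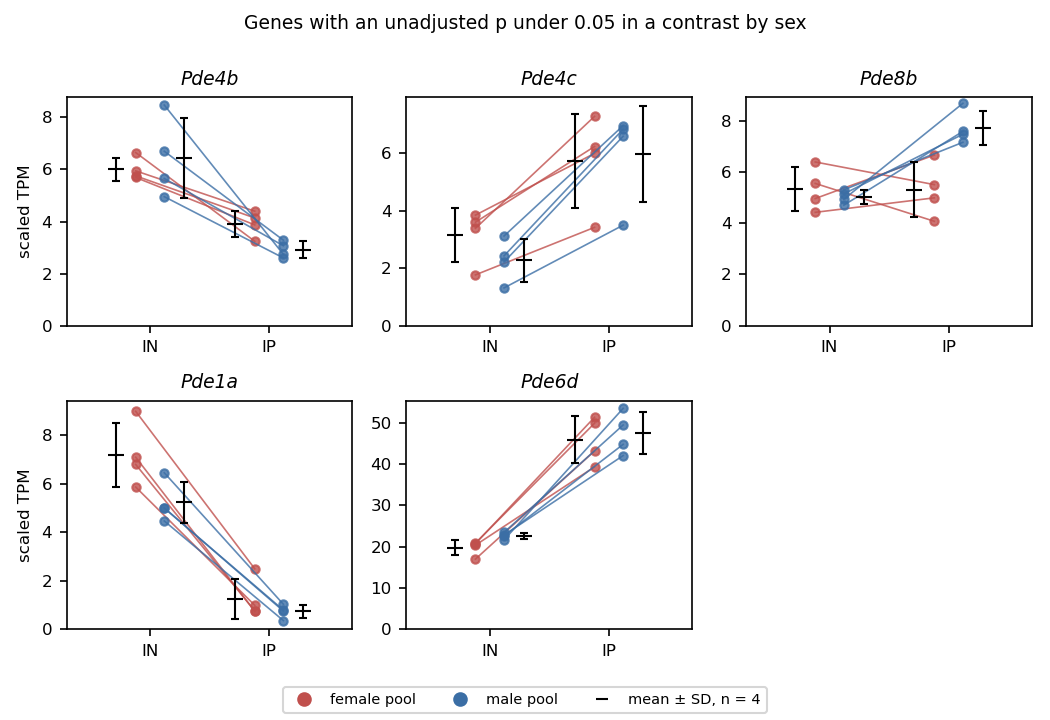
Scaled TPM in each library of the 5 genes with an unadjusted p under 0.05 in a contrast by sex or in the interaction, IN and IP of a pool joined by a line, female pools in red and male pools in blue; black bars are the mean ± SD of each group of 4. For Pde8b the 4 male IP values lie between 7.16 and 8.68, above the 4 female ones at 4.08 to 6.66; no contrast shown passed after adjustment.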

How the data were processed

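RNA-seq values were deposited for 16 libraries, 8 IN and 8 IP. The column the authors deposited was taken to be TPM, because it has the same sum of 1000000 in every library, although the file headers end in the word Coverage. StringTie 1.3.5, STAR 2.2.1 and FastQC are named in the submitters' processing notes; which annotation and strand setting they ran with is not stated in the sources used here. TPM keep no counts, so depth and counting error are unknown and no count test was run.

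TPM were scaled by the median of ratios over tested genes, and log2 was taken after adding 1, which understates changes of low genes. Genes with a mean deposited TPM of at least 1 over the IN or IP libraries of a fit were tested with limma 3.58.1 (R 4.3.3; lmFit, eBayes with trend), two-sided, adjusted by Benjamini-Hochberg over all tested genes. Pools were a block in IP against IN and in the interaction of sex and fraction (female minus male), but not in female against male. IN and IP of a number come from the same mice per the series design. The correlation of their deviations from the group means was 0.0136 to 0.414 in female and 0.00665 to 0.323 in male pools. Between IN and IP libraries of different pools it was -0.263 to 0.115 in females and -0.279 to 0.201 in males. These ranges overlap. Means, shares and ratios were computed in Python 3.11.15 (pandas 2.3.3).

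The fit was checked on simulated log2 values. Of changes of 1 on the log2 scale it recovered 100% in IP against IN, 79% in female against male in IP and 67% in the interaction. Female against male in IN was not simulated. Sex differences of that size could therefore be missed. Alternatives were deposited TPM without scaling, quantile normalization, a pseudocount of 0.1, no filter, array weights, the block added or dropped, and each pool left out. Added after seeing the data were deposited TPM centred on the median tested gene, the fit without female pools 2 and 4, and Pde2a summed with Gm45837. Any member could be named, and of each list around the module up to 4 tested genes, mostly those with the largest or smallest changes. Akap2 (log2 change -1.07) and Ep300 (-1.01) were not named above, although they fell more than Akap9 and Creb1. The members and lists were chosen with earlier results of these data known. The labels give no batch or date.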

Additional observations from a re-analysis of the deposited data

Results flagged for a closer look

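In each group of 4 libraries the gap of the highest or lowest library to its neighbour was set against the range of the group, and 12 of 144 groups passed the 95% limit of Dixon's test. Chance flags about 1 in 20 groups. Among the kinase subunits these were Prkaca at 85.0 scaled TPM in the IP library of male pool 3 (77.2 to 77.8 in the other male pools), Prkar2a at 65.3 in the IN library of female pool 2 (53.0 to 54.0), and Prkar2b at 78.2 in the IN library of female pool 3 (29.9 to 32.8) and at 49.7 in that of male pool 4 (32.8 to 34.4).

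Among the phosphodiesterases, the IP library of female pool 2 stood high for Pde1a at 2.49 (0.736 to 0.984 in the other female pools) and for Pde7b at 3.04 (0.605 to 0.950). Pde7b was also high at 9.56 in the IN library of male pool 3 (7.46 to 7.63). Pde2a was low at 7.27 in the IN library of female pool 4 (18.1 to 19.5), where Gm45837 was at 10.5. In the IP library of male pool 3 Pde4c was low at 3.50 (6.59 to 6.96) and Pde7a high at 4.64 (3.64 to 3.72). Pde6d was low at 17.0 in the IN library of female pool 3 (20.4 to 20.9). Among the exchange factors, Rapgef2 was high at 10.4 in the IN library of male pool 2 (9.44 to 9.60).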

How the results depend on the processing

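The scaling between fractions set the directions. With deposited TPM unscaled 32 genes were called higher in IP and 3 lower, against 12 and 15. Of all 16099 tested genes 14623 were then called higher and 935 lower, against 6514 and 6269. Log2 changes turned positive for Adcy1 (0.82), Adcy6 (0.93), Adcy7 (1.42), Adcy8 (1.14), Gucy1a2 (1.75), Pde1b (1.3), Pde1c (2.09), Pde3a (0.61), Pde4a (0.44), Pde4b (1.15), Pde4d (1.44), Pde7a (1.23) and Rapgef2 (1.20). Quantile normalization turned Adcy7 (0.080), Adcy8 (0.088), Pde1b (0.19), Prkaca (-0.13), Prkacb (-0.32), Prkar1a (-0.22) and Rapgef4 (-0.18). Without a filter 19 of 48 tested were higher and 24 lower, against 23.6% and 35.8% of all genes, and Pde1c turned (0.12). With centred deposited values 19 were higher and 15 lower, against 45.5% and 41.2% of all tested genes, and Pde1c (0.32) and Pde8a (-0.0095) turned. Prkar1a was -0.0095 with array weights and -0.014 without female pools 2 and 4. The causes were not tested beyond the change of scale or of genes tested.

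Leaving out 1 pool at a time gave 11 to 14 genes higher and 15 to 16 lower, 21 to 27 called in females, 24 to 27 in males, and 0 in each sex contrast and in the interaction. Of all 16064 to 16142 tested genes these fits called 6281 to 6519 higher and 6123 to 6274 lower. In females they called 8581 to 10875 of all tested genes and in males 9937 to 10564. The sex contrasts called 7 to 12 in IN and 5 to 12 in IP, and the interaction 0 to 6. Log2 changes that turned then were those of Prkacb (-0.17 to 0.099) and Prkar1a (-0.0088 to 0.012), neither of which passed; the calls of Pde1b, Pde3b and Pde8b gained and of Adcy2 lost then are given with these genes.

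Without the replicate block 12 genes were higher and 15 lower in IP, against 6287 and 6185 of all 16099 tested genes. The call of Adcy2 was then lost (adjusted p = 0.226) and Pde8b passed (0.032). With the replicate number as a replicate block 0 genes of the module passed in female against male. Of all tested genes 6 passed in IN and 5 in IP. The replicate numbers are shared names across sexes, not a pairing.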
